A study of Homo sapiens with 10 samples.

Results

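SOX10, PAX3, TFAP2A and LEF1 are 4 transcription factors of the neural crest and pigment lineage, and their RNA was followed in 501Mel, an established human melanoma cell line, after small interfering RNA against IRF4. They were chosen by name, with 2 Ensembl transcripts each for SOX10, PAX3 and TFAP2A and a genomic window around SOX10. RNA values were therefore read for 3 of the 4 genes, from 6 of the 187626 transcripts listed. Any other transcripts of these genes were not read, and the leading transcript of a gene is the more abundant of its 2 named. No table used here pairs LEF1 with a transcript, and its RNA was not analysed here. The RNA-seq groups were siIRF4 (siRNA against IRF4) and siCTRL (control siRNA), with 3 libraries of polyadenylated RNA each, both in 501Mel. ChIP-seq mapped IRF4 tagged with eGFP (enhanced green fluorescent protein) in the same line, with 2 replicates. The labels do not say how the tagged protein was introduced or at what level it was made, nor the dose, time or sequence of the siRNAs. All samples come from 1 cell line. The labels also do not say whether the RNA libraries came from separate cultures, so p-values measure the spread between these libraries, which may be technical.

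SOX10, an HMG-box factor, is needed from neural crest through mature melanocytes and switches on the pigment cell regulator MITF. PAX3, a paired-box and homeodomain factor, acts with SOX10 on the MITF promoter. TFAP2A, the AP-2 alpha factor, works beside MITF at genes of pigment cell differentiation, and LEF1 carries Wnt signals to DNA together with beta-catenin. IRF4, interferon regulatory factor 4, binds DNA in lymphoid cells and melanocytes. In lymphoid cells it often binds with ETS family partners, at a composite element that joins an ETS and an IRF half-site.

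The RefSeq table of promoters (GRCh38.p14) held entries for 3 of the 4 genes, PAX3, TFAP2A and LEF1, and none for SOX10. The 250 bases before the start are shown for PAX3 and for the outermost TFAP2A start, because these genes varied in opposite directions across the libraries. Capitals mark matches to the searched motifs. The PAX3 window is chr2:222298999-222299248 and the TFAP2A window chr6:10419660-10419909, both on the minus strand and written 5′ to 3′.
PAX3: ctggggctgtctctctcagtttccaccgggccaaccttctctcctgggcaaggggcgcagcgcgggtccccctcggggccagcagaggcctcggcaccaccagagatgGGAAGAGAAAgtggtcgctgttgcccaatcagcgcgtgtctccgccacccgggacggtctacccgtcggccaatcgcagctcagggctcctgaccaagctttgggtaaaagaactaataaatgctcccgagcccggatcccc
TFAP2A: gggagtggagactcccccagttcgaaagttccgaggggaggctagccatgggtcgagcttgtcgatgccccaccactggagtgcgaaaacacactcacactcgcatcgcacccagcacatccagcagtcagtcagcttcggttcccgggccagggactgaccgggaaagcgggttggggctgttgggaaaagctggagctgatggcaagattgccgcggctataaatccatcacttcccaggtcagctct
The capitals in PAX3 are a match to the core of the ETS-IRF composite element (GGAA, any 2 bases, GAAA), from base -142 to base -133 before the start. That core was found on either strand in 2.41% of the 35116 promoter windows of the table. The interferon response element core (GAAA, any 2 bases, GAAA), which is in 3.02% of windows, had no match in the windows of PAX3, LEF1 or either TFAP2A start. Nor did the SOX core ACAAAG (13.7% of windows), the M-box core CATGTG (9.42%), the E-box CACGTG (6.34%), the AP-2 core of GCC, any 3 bases and GGC (19.8%) or the TCF/LEF core CTTTGAT (2.26%). Both strands were searched. The composite and interferon cores share their second half-site and can overlap. A match is a string of letters, and the tables do not say which start the measured transcripts use.

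Total estimated counts ran from 129989698 to 203758441 per library. IRF4 RNA itself was not analysed here, so the knockdown was not checked, and markers of pigment cells or of other cell types were not read either. The libraries did not separate by label: the first principal component of log2 CPM (33.6% of the variance) placed siIRF4 replicate 1 at -111 beside siCTRL replicates 1 and 3 at -128 and -173. It placed siCTRL replicate 2 at 132 between siIRF4 replicates 2 and 3 at 199 and 80.8. Whether the labels of these 2 libraries are right was not tested, and each fold change compares the groups as labelled. Values are therefore also given without siIRF4 replicate 1 and siCTRL replicate 2. The libraries left out were chosen by their place on this axis, and differences in that fit were wider in general: the median absolute log2 fold change over all transcripts was 0.42, against 0.26 with all 6 libraries. An unadjusted edgeR p under 0.05 was reached there by 12.6% of 85498 transcripts, and an adjusted one by 0. In edgeR, 0 of 83831 transcripts passed an adjusted p of 0.05 between siIRF4 and siCTRL (0%), and 2.14% had an unadjusted p under 0.05. Of the 6 transcripts of SOX10, PAX3 and TFAP2A, 0 passed the adjusted threshold in edgeR and in DESeq2, against 0.209% of all transcripts in DESeq2. An unadjusted p under 0.05 was reached by 1 of the 6 in edgeR and in DESeq2 (2.72% of all transcripts) and by 0 in limma-voom (2.47%). In the edgeR fit without the 2 libraries it was reached by 2 of the 6, both of TFAP2A.

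By the named transcripts, SOX10 was by far the most abundant of the 3 factors, and its level was close to equal in the groups. Its leading transcript, ENST00000396884 of 2879 bases, stood at rank 531 of all transcripts by mean TPM (transcript abundance scaled for length to a fixed library total). It had 230.3, 227 and 230.8 TPM in siIRF4 replicates 1, 2 and 3, and 260.3, 198.3 and 221.9 TPM in siCTRL replicates 1, 2 and 3. The 3 siIRF4 values all fell inside the range of the siCTRL values, which held both the highest and the lowest library. The group means were 229 ± 2.06 TPM (SD, n = 3) in siIRF4 and 227 ± 31.3 TPM in siCTRL. The log2 fold change was 0.02 (SE 0.13, 95% interval -0.30 to 0.33), with an edgeR adjusted p of 1. Without the 2 libraries named above it was -0.10 (SE 0.13, edgeR adjusted p = 0.845), a change of sign. In bulk RNA, a change in the number of cells with SOX10 and a change in SOX10 RNA per cell could not be told apart.

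The other named SOX10 transcript, ENST00000360880, is 18 bases shorter and took almost none of the counts. It was listed at estimated counts of 0, 20.7 and 0 in siIRF4 replicates 1, 2 and 3, and at 55.5, 313 and 97.6 in siCTRL. It was the 1 transcript of the 6 whose groups did not overlap, a state found in 7.11% of the transcripts tested. Its fitted log2 fold change of -4.09 (SE 1.54) rests on 2 libraries at 0 and had an edgeR adjusted p of 1 (unadjusted p = 0.0345). The size of this value depends on the scale: it was -0.51 on log2(TPM + 1), -2.10 on log2(TPM + 0.1) and -5.99 with limma-voom. Without siIRF4 replicate 1 and siCTRL replicate 2 the edgeR value was -2.85 (SE 1.58). The transcript held 0.0119% ± 0.0206 (SD, n = 3) of the TPM of both named SOX10 transcripts in siIRF4 and 0.227% ± 0.178 in siCTRL. An exact permutation test of this share gave p = 0.1 (two-sided), the smallest that 3 against 3 libraries allow. A pseudoaligner divides fragments that match several transcripts between them. How many fragments these transcripts share is not given, and the part of that division in the difference was not tested. RefSeq also has POLR2F, a subunit of RNA polymerases, overlapping SOX10. The files do not state whether strand was used.

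**Figure D1:**
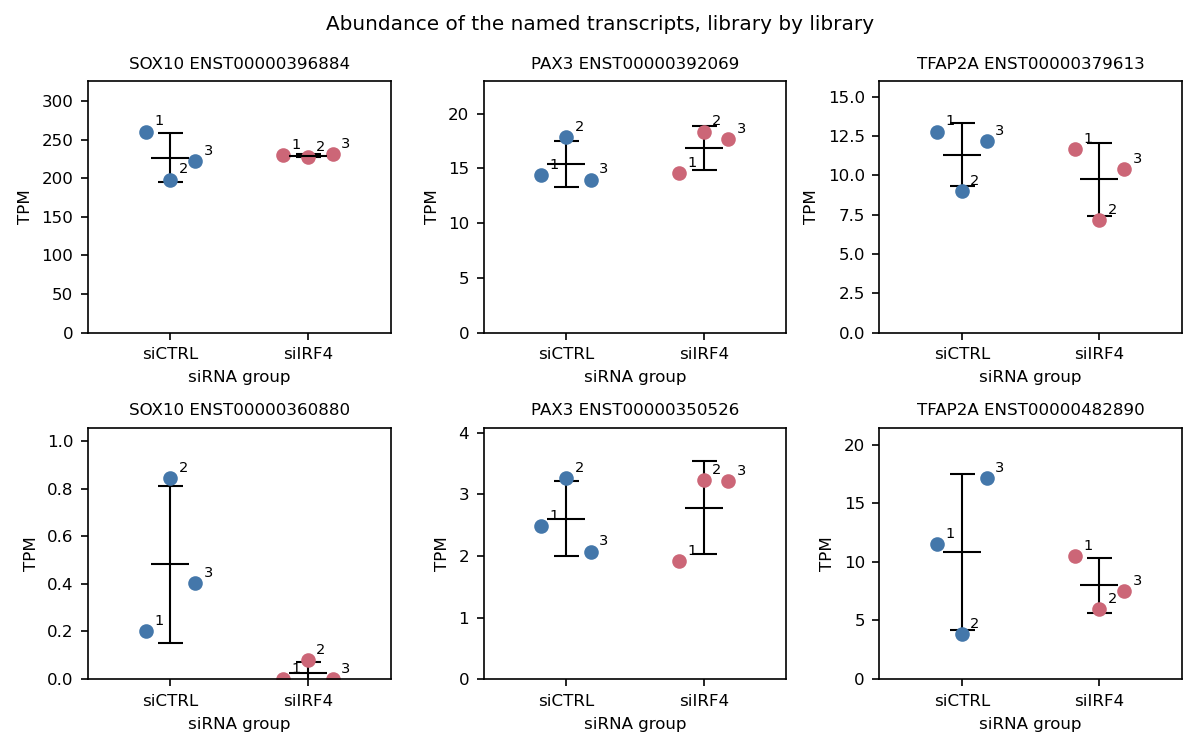
TPM of the 6 named transcripts on the vertical axis (starting at 0) by siRNA group. Points are libraries numbered by replicate, bars are mean ± SD (n = 3). SOX10 ENST00000396884 lies between 198.3 and 260.3 TPM in every library, and the groups overlap in each panel except that of SOX10 ENST00000360880.

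PAX3 differed little between the groups, and more between libraries of the same group. Its leading transcript, ENST00000392069 (3170 bases), had 14.6, 18.36 and 17.68 TPM in siIRF4 replicates 1, 2 and 3. In siCTRL replicates 1, 2 and 3 it had 14.4, 17.84 and 13.99 TPM. In each group the replicates fell at the same pair of levels, near 14 or near 18 TPM, with 2 high libraries in siIRF4 and 1 in siCTRL. The group means were 16.9 ± 2.00 TPM in siIRF4 and 15.4 ± 2.11 TPM in siCTRL (SD, n = 3). The log2 fold change was 0.13 (SE 0.16, 95% interval -0.25 to 0.51, edgeR adjusted p = 1).

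The shorter PAX3 transcript, ENST00000350526 (1788 bases), lay at 1.912, 3.227 and 3.22 TPM in siIRF4 and at 2.481, 3.263 and 2.071 TPM in siCTRL. The same 3 libraries were high for it as for the longer transcript. Its log2 fold change was 0.10 (SE 0.29, edgeR adjusted p = 1). It made up 14.0% ± 2.09 of the TPM of both named PAX3 transcripts in siIRF4 and 14.3% ± 1.32 in siCTRL (SD, n = 3). An exact two-sided permutation test of this share gave p = 0.8. Without siIRF4 replicate 1 and siCTRL replicate 2, the log2 fold changes of the longer and the shorter transcript were 0.32 (SE 0.14) and 0.48 (SE 0.24). The edgeR adjusted p-values were then 0.459 and 0.52, with 2 libraries left per group and differences wider over all transcripts. Both PAX3 transcripts were higher in the libraries with positive scores on the first principal component. The 2 libraries were left out by that score, so this fit cannot tell the siRNA groups from that axis.

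TFAP2A ran lower in siIRF4 on average, by less than the spread between replicates. ENST00000379613 (3331 bases) had 11.66, 7.171 and 10.4 TPM in siIRF4 replicates 1, 2 and 3, and 12.77, 9.011 and 12.18 TPM in siCTRL. Replicate 2 was the lowest library in each group, and the groups overlapped. The means were 9.74 ± 2.32 TPM in siIRF4 and 11.3 ± 2.02 TPM in siCTRL (SD, n = 3). The log2 fold change was -0.22 (SE 0.23, 95% interval -0.77 to 0.33, edgeR adjusted p = 1).

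ENST00000482890 (2071 bases), the other named TFAP2A transcript, was the most variable of the well-counted transcripts read. It had 10.51, 5.97 and 7.489 TPM in siIRF4 and 11.5, 3.856 and 17.14 TPM in siCTRL replicates 1, 2 and 3. The siCTRL group held both extremes, which differed 4.45-fold. Its SD within groups, 0.848 on the log2 CPM scale, exceeded that of 95.2% of the 4612 transcripts within 0.5 log2 CPM of its level. The corresponding shares were 66.7% for the longer TFAP2A transcript, 34.7% for the leading PAX3 transcript and 43.4% for the leading SOX10 transcript. The log2 fold change was -0.43 (SE 0.52, 95% interval -1.69 to 0.82, edgeR adjusted p = 1). Leaving out siCTRL replicate 3 turned it to 0.08, and leaving out siCTRL replicate 2 took it to -0.84.

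In these libraries the balance between the 2 named TFAP2A transcripts varied less in siIRF4 than in siCTRL. ENST00000482890 held 47.4%, 45.4% and 41.9% of the TPM of both transcripts in siIRF4 replicates 1, 2 and 3. In siCTRL replicates 1, 2 and 3 it held 47.4%, 30.0% and 58.5%. The group means were 44.9% ± 2.81 and 45.3% ± 14.4 (SD, n = 3), and the exact two-sided permutation p for the difference in means was 1. The difference in spread was not tested. Without siIRF4 replicate 1 and siCTRL replicate 2, the log2 fold changes of the longer and the shorter TFAP2A transcript were -0.54 (SE 0.18) and -1.12 (SE 0.26). The edgeR adjusted p-values were then 0.34 and 0.2, in the fit where differences were wider over all transcripts. Both TFAP2A transcripts were lower in the libraries with positive scores on the first principal component. The 2 libraries were left out by that score, so this fit cannot tell the siRNA groups from that axis. In the same 4 libraries the share of ENST00000482890 was lower in siIRF4 by a mean difference of -9.28 percentage points, against -0.369 points in all 6. RefSeq places the antisense genes TFAP2A-AS1 and TFAP2A-AS2 across TFAP2A, and without strand their reads cannot be told apart where the exons overlap.

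**Figure D2:**
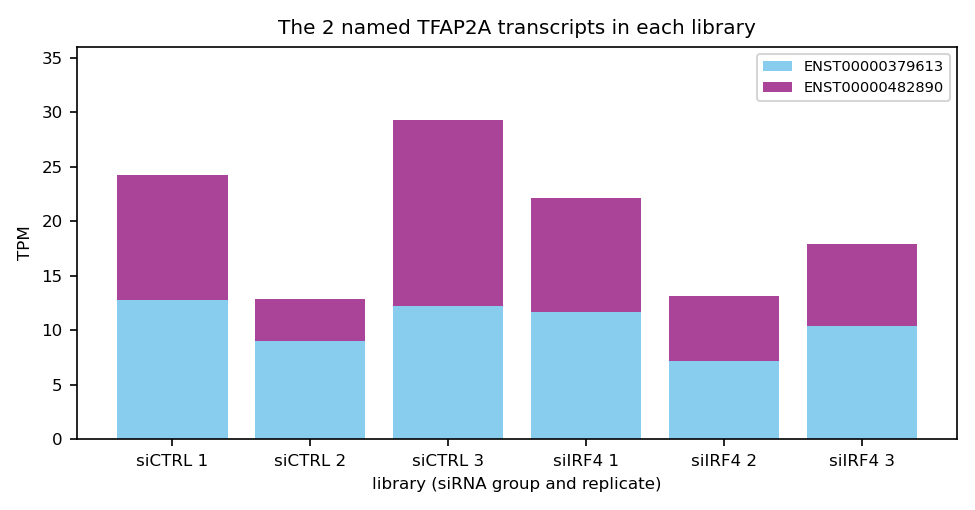
TPM of the 2 named TFAP2A transcripts stacked for each library, with the vertical axis from 0. The summed bars run from 12.87 TPM in siCTRL replicate 2 to 29.31 TPM in siCTRL replicate 3, and most of that span lies in ENST00000482890.

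**Figure D3:**
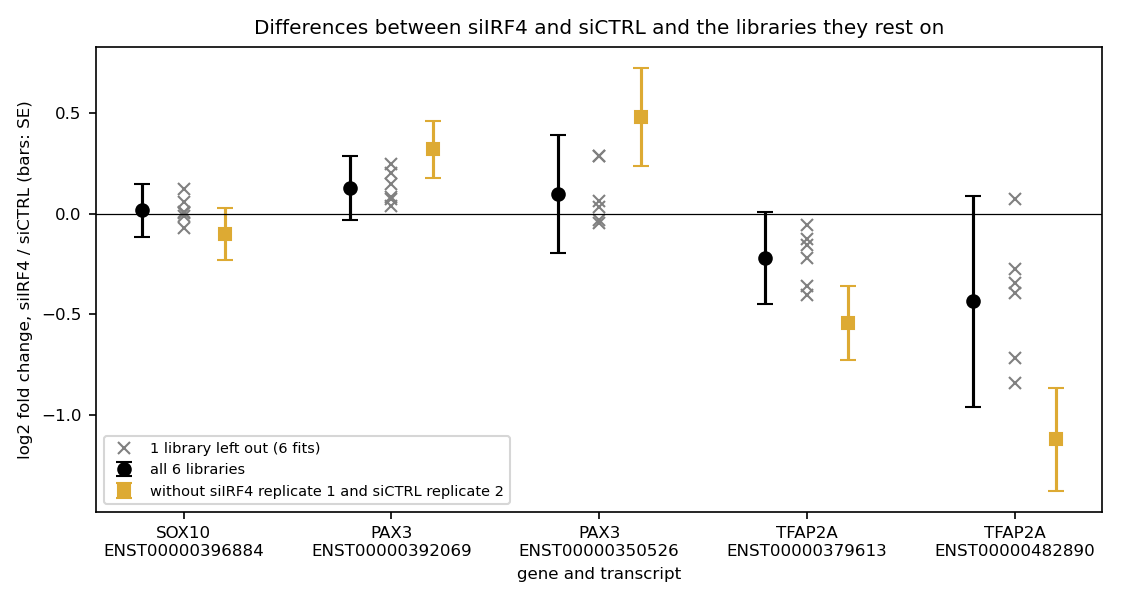
Log2 fold change of siIRF4 over siCTRL for 5 transcripts. Circles with SE bars are all 6 libraries, crosses the 6 fits that each left out 1 library, and squares with SE bars the fit without siIRF4 replicate 1 and siCTRL replicate 2. SOX10 ENST00000360880 is not drawn because 2 libraries were at 0. The squares lie farther from 0 than the circles for each transcript drawn, on the other side of 0 for SOX10, as the median absolute log2 fold change over all transcripts also rose from 0.26 to 0.42.

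In TPM, which is scaled for length, the order of the factors was clear at the top only. The named transcripts summed to 228 ± 19.7 TPM for SOX10, 18.8 ± 2.60 TPM for PAX3 and 19.9 ± 6.51 TPM for TFAP2A (SD over 6 libraries). By these sums, SOX10 was 9.44 to 15.4 times the level of PAX3 and 7.58 to 17.3 times that of TFAP2A. It ranked first in each of the 6 libraries. Any other transcripts of these genes were not read, so the order of the whole genes was not measured. PAX3 and TFAP2A changed places. PAX3 was below TFAP2A in siIRF4 replicate 1 (ratio 0.745) and siCTRL replicates 1 and 3 (0.695 and 0.548). It was above TFAP2A in siIRF4 replicates 2 and 3 (1.64 and 1.17) and siCTRL replicate 2 (1.64). These are the same libraries that lay on opposite sides of the first principal component. The part of that axis in these differences was not tested.

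In CPM (counts scaled to a fixed library total, but not for length), the leading PAX3 transcript stood at 29.3 in siIRF4 replicate 1 and at 29.3 and 29.2 in siCTRL replicates 1 and 3. The other libraries were higher, with 38.6 and 36.1 in siIRF4 replicates 2 and 3 and 36.4 in siCTRL replicate 2. For the leading TFAP2A transcript the same libraries had 24.7, 27.4 and 26.9 CPM, then 15.9, 22.4 and 19.4 CPM. PAX3 was thus high where TFAP2A was low, and the share of all transcripts that divide these libraries the same way was not analysed. SOX10 did not follow that order: it had 415.6, 475.7 and 417.2 CPM in the first 3 libraries and 429.5, 424.4 and 363.4 CPM in the others.

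**Figure D4:**
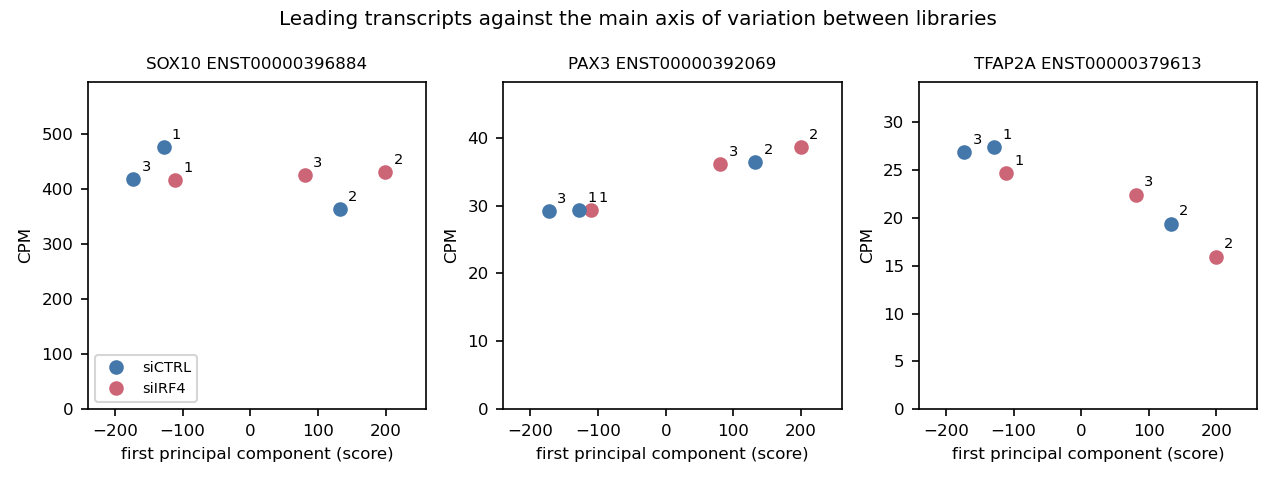
CPM of the leading SOX10, PAX3 and TFAP2A transcripts (vertical axes from 0) against each library's score on the first principal component. Points are libraries numbered by replicate. PAX3 lies near 29 CPM in the 3 libraries with negative scores and at 36.1 CPM or more in the others, and TFAP2A is lower in the libraries with positive scores.

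The transcripts most like each factor across the 6 libraries were sought, as a description, among the 13437 averaging 10 CPM or more. The closest to the leading SOX10 transcript was ENST00000540079.6, with a Pearson r of 0.981, and 13 transcripts had an r above 0.95. For PAX3 the closest was ENST00000261789.8 (r = 0.997), among 262 above 0.95. For TFAP2A it was ENST00000341189.8 (r = 0.994), among 247 above 0.95. Each coefficient is the highest found among 13437 transcripts over 6 libraries, so it carries no p-value. How many would lie above 0.95 by chance was not tested. The 6 values of PAX3 also fall into separate levels. These identifiers carry no gene name in the tables used.

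IRF4-eGFP peaks lay around SOX10 in 1 of the 2 ChIP replicates. Replicate 2 listed 6 of its 12831 peaks in a window on chromosome 22 (hg19) that reaches 50 kb to each side of the gene. Replicate 1 listed 0 of its 7568 peaks there, and its nearest peak was 71.9 kb away. The lists begin at different scores, 100.01 in replicate 1 and 150.01 in replicate 2, with medians of 173.68 and 256.74. The score is not defined in the sources used, and whether it is on a common scale in both lists was not tested. SOX10 is read toward lower coordinates, so that its start is at the upper end of its span, chr22:38368000-38381000 in the rounding of the window.

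The best-scoring of the 6 peaks was at chr22:38362858-38365730, 2.27 kb beyond the 3′ end of SOX10. Its score of 722.1 placed it 972nd in replicate 2, in the top 7.58% of the list. A weaker peak at chr22:38368350-38371025 (score 257.47) overlapped the span itself, at the 3′ end. The weakest, at chr22:38329239-38330662 (score 192.03), lay 37.3 kb beyond the 3′ end. No peak of either list covered the 5′ end of the span.

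The other 3 peaks lay upstream of the SOX10 start and were the broadest of the 6. The nearest of them, at chr22:38390070-38397289, was 9.07 kb from the span, had a score of 363.19 and was 7220 bases wide. Of the replicate 2 peaks, 0.109% were at least that wide, where the median width was 1290 bases. The next, at chr22:38411766-38416210, was 4445 bases wide (1.19% as wide or wider) with a score of 350.46. The outermost, at chr22:38428205-38433067, was 4863 bases wide (0.787%), with a score of 471.83, and ran past the edge of the window. The best-scoring peak at the 3′ side was also wider than the median, at 2873 bases (5.78%). The peak over the span had 2676 bases (7.26%) and the weakest 1424 bases (42.4%). In RefSeq, the genes next to SOX10 are MICALL1, C22orf23 and MIR6820 at lower coordinates and MIR4534 and POLR2F-AS1 at higher ones, with POLR2F across it, so that the peaks also lie near other genes. An annotation and a sequence in hg19 were not used here.

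A set of 6 peaks in this length was uncommon among windows over the genome, and clusters were less rare when counted by peak. Of the replicate 2 peaks, 12.6% had at least 5 peak centres, their own included, in a window of this length centred on them. For replicate 2, 25960 windows of 113001 bases were laid end to end over chromosomes 1 to 22 and X. Of these, 0.497% (129 windows) held 6 or more peak centres, 28.9% held any and the fullest held 11. For replicate 1, 20.8% of 25897 such windows held a peak. That is a rate over all windows, and the rate in windows with replicate 2 peaks was not analysed. None of the 6 peaks overlapped a replicate 1 peak by a single base, whereas 38.8% of the 8543 replicate 2 peaks in the same range of scores did. Of the 3094 replicate 1 peaks in that range, 81.5% overlapped a replicate 2 peak, though the scores of the lists may not be on a common scale. On chromosome 22, 24.9% of the 334 replicate 2 peaks were shared, against 36.8% of the whole list. The nearest shared site lay outside the window, at chr22:38452854-38453981 in replicate 1 (score 225.37) and at chr22:38452105-38453980 in replicate 2 (score 180.64). With 2 ChIP replicates of 1 group there is no test, and the lists hold no read counts, so whether replicate 1 had signal under its threshold was not tested. Peaks near PAX3, TFAP2A and LEF1 were not analysed here.

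**Figure D5:**
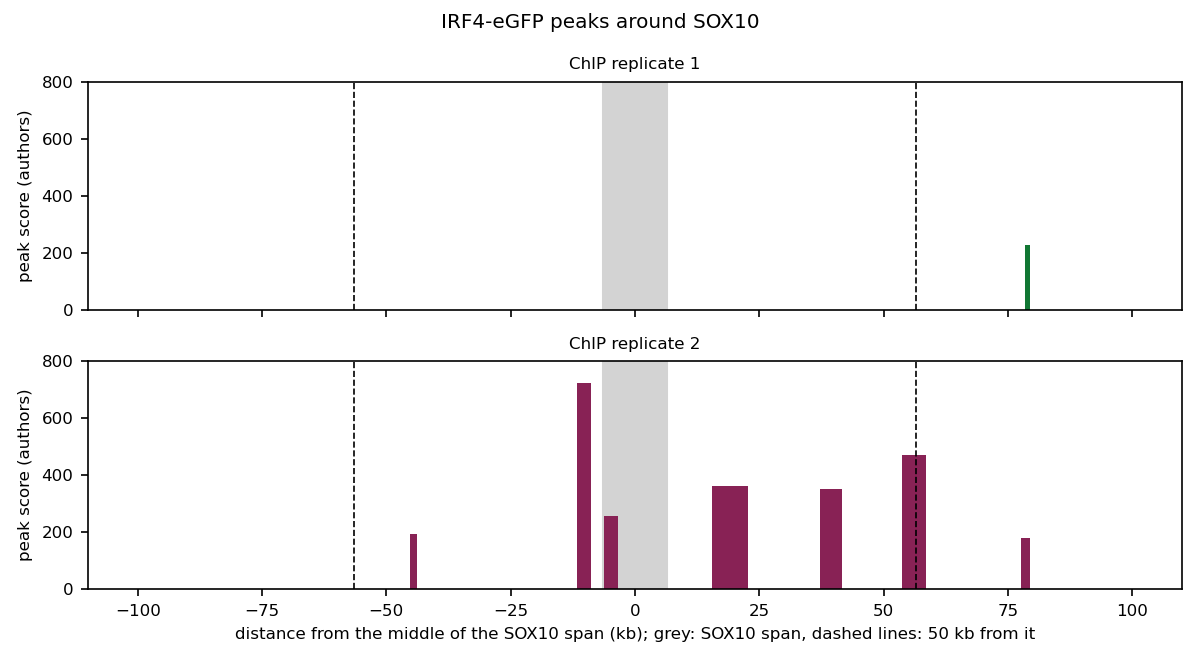
Peaks of each ChIP replicate as bars at their distance in kb from the middle of the SOX10 span. Bar width is the peak's width and bar height the authors' score, from 0. Replicate 2 has 6 peaks between or across the dashed lines, with scores from 192.03 to 722.1, and replicate 1 has 0.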

How the data were processed

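RNA-seq covered 6 libraries and ChIP-seq 2 replicates with a peak list. No list was used for the 2 inputs. The authors deposited estimated counts and TPM per Ensembl transcript, with length and effective length in bases (other columns of the same tables), per the file headers. kallisto and GRCh38 for RNA and Bowtie2 and hg19 are named in the submitters' processing notes, without roles. The peak lists carry a score deposited by the authors, whose definition, threshold and input are not given in the sources used here. Peak starts were converted to count from 1.

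The members and lists were chosen with earlier results of these data known. A table of gene names by gene ID was used, and no table that pairs transcripts with genes, so the fit was per transcript and 6 transcripts named with the gene set were used. Lists of related genes, the siRNA target and LEF1 were not analysed for RNA. Named were these transcripts, the closest by Pearson r and each peak in the window.

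Estimated counts were rounded and tested with edgeR 4.0.16 in R 4.3.3 (quasi-likelihood, TMM, filterByExpr, two-sided, Benjamini-Hochberg over 83831 transcripts with 99.87% of the counts, threshold 0.05, no replicate block). The filter kept each of the 6 transcripts. SE is the absolute log2 fold change over the square root of F. CPM is the estimated count scaled to a library total of 1000000. The component and correlations used log2 CPM (prior count 2). DESeq2 1.42.0 and limma 3.58.1 were alternatives. The fit was tested on simulated data. No pair of libraries was a repeat deposit: the chi-square per degree of freedom was at least 38.6.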

Additional observations from a re-analysis of the deposited data

How the results depend on the processing

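The count of 0 transcripts called became 175 with DESeq2 and 8 with limma on log2(TPM + 0.1), and was 0 in the other 15 alternatives, the fits without 1 library included (0 to 0). None of the 6 transcripts passed the adjusted threshold in any alternative that tested them. The lowest edgeR adjusted p was 0.2, for TFAP2A ENST00000482890 (log2 fold change -1.12) without siIRF4 replicate 1 and siCTRL replicate 2. In that fit PAX3 ENST00000350526 had a log2 fold change of 0.48 (edgeR adjusted p = 0.52). Summing the named transcripts gave log2 fold changes of 0.01 for SOX10, 0.13 for PAX3 and -0.29 for TFAP2A. The values that follow for a gene alone are those of its leading transcript. The SOX10 log2 fold change reversed to -0.10 without siIRF4 replicate 1 and siCTRL replicate 2 and ran from -0.07 to 0.13 with 1 library left out. With 1 library left out, PAX3 ran from 0.04 to 0.25, PAX3 ENST00000350526 from -0.046 to 0.29, TFAP2A from -0.40 to -0.05, TFAP2A ENST00000482890 from -0.84 to 0.076 and SOX10 ENST00000360880 from -10.11 to -3.42. The cause was not tested. ENST00000360880 was not tested at a mean of at least 1 CPM.

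The replicate number as a block changed no call and gave 0 calls, with log2 fold changes of 0.02 for SOX10, 0.13 for PAX3 and -0.23 for TFAP2A. Under the block TFAP2A ENST00000482890 was at -0.22, against -0.43 without it, and SOX10 ENST00000360880 at -5.39, against -4.09. With the block, the SE went from 0.13 to 0.12 for SOX10, from 0.16 to 0.11 for PAX3 and from 0.23 to 0.12 for TFAP2A. An unadjusted edgeR p under 0.05 was then reached by 3.28% of all transcripts, against 2.14% without it. Deviations of same-numbered libraries correlated at 0.196, 0.238 and 0.0381. These were not compared with differently numbered libraries, so whether the numbers pair the libraries was not tested.

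Leaving out libraries for transcript shares was added after the data were seen. The difference in share, siIRF4 minus siCTRL, ran from -0.29 to -0.117 percentage points for SOX10 ENST00000360880, from -1.10 to 0.829 for PAX3 ENST00000350526 and from -8.02 to 6.23 for TFAP2A ENST00000482890. Without siIRF4 replicate 1 and siCTRL replicate 2 the TFAP2A share difference went from -0.369 to -9.28 points, that of PAX3 from -0.37 to 1.39 and that of SOX10 from -0.215 to -0.111.

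Within 100 kb of SOX10, replicate 1 had 1 peak and replicate 2 had 7. Within 25 kb, replicate 2 had 3. Alternatives for LEF1 were not run, as its RNA was not analysed here.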
